A study of Rattus norvegicus with 21 samples.

Results

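The 104 genes described here were higher in the urinary bladder of spinal cord-injured rats than in uninjured controls at every week at which both were collected. They were chosen from the measured levels of 15225 genes that passed a filter on low counts, of 32754 in the table, and make up 0.683% of the genes tested. A gene was taken when, at 2, 8 and 16 weeks, all 3 libraries from rats with spinal cord injury (SCI) lay above all 3 controls of that week and the mean difference was at least 0.2 in log2 CPM (counts scaled to a common library size). The difference between SCI and control is therefore what chose these genes, and it is given below as a description with no test. When the direction was mirrored, the same conditions took 263 genes that were lower after SCI at every week, or 1.73% of the genes tested.

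RNA was extracted from full-thickness bladders of wild-type rats, all males of the outbred Sprague Dawley strain. The thoracic cord was fully transected at 6 to 7 weeks of age, and bladders were taken 2, 8 and 16 weeks later. Uninjured controls were taken at 0, 2, 8 and 16 weeks, so that 7 groups of 3 libraries, 21 in all, were available. The labels give each library its own code, place all libraries in 1 batch and list no sham-operated group, so surgery and injury cannot be told apart. The 0-week controls took no part in the choice of genes beyond the count filter and the scaling factors.

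Transection above the sacral cord removes descending control of voiding. Reflex bladder contractions then return without coordination with the urethral sphincter, and the resulting functional obstruction is known to thicken the bladder wall through growth of smooth muscle and deposition of extracellular matrix. The uninjured rat bladder also keeps growing during these weeks. A full-thickness sample mixes urothelium, lamina propria, smooth muscle, vessels, nerves and immune cells, and in such bulk tissue more cells of a type and more RNA per cell cannot be told apart.

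The table identifies genes by Ensembl number, and 0 of these identifiers could be paired with a symbol in the tables used here. For this reason no gene function, cell type marker or promoter sequence is given, and the labelled tissue was not checked against its markers. Only 4 identifiers are printed. ENSRNOG00000026053 and ENSRNOG00000011907 had the largest values of the smallest of the 3 weekly differences, and ENSRNOG00000020481 and ENSRNOG00000056565 were picked because edgeR called them lower in 16-week than in 2-week controls.

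Libraries held 8087726 to 15472537 counts (median 9584812). At least 10 counts in every library were held by 100 of the 104 genes, and the lowest count of any of them was 6. Their mean level over the 21 libraries ran from 0.72 to 9.27 log2 CPM, with a median of 5.41 against 4.43 for all genes tested. Of the 104 genes, 7 had a mean level under 2 log2 CPM, where the median of the smallest difference was 0.872. The 5 genes at 8 log2 CPM or more had a median of 0.241. Counts assigned to the 104 genes made up 0.513% to 0.875% of a control library and 0.78% to 1.07% of an SCI library.

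Most of these genes were only modestly higher after SCI. At 2 weeks the difference between SCI and control ranged from 0.20 to 2.08 log2 CPM with a median of 0.32, where the median of all genes tested was 0.000845. At 8 weeks the 104 genes ranged from 0.26 to 2.24 with a median of 0.59, and at 16 weeks from 0.21 to 2.13 with a median of 0.53. The median standard error of a difference (3 libraries against 3) was 0.114, 0.176 and 0.123, in the same order. A difference of 1 log2 unit was reached by 3 genes in the first of these weeks, 11 in the second and 15 in the third. The 2 genes that reached it at all 3 weeks were ENSRNOG00000026053 and ENSRNOG00000011907.

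**Figure D1:**
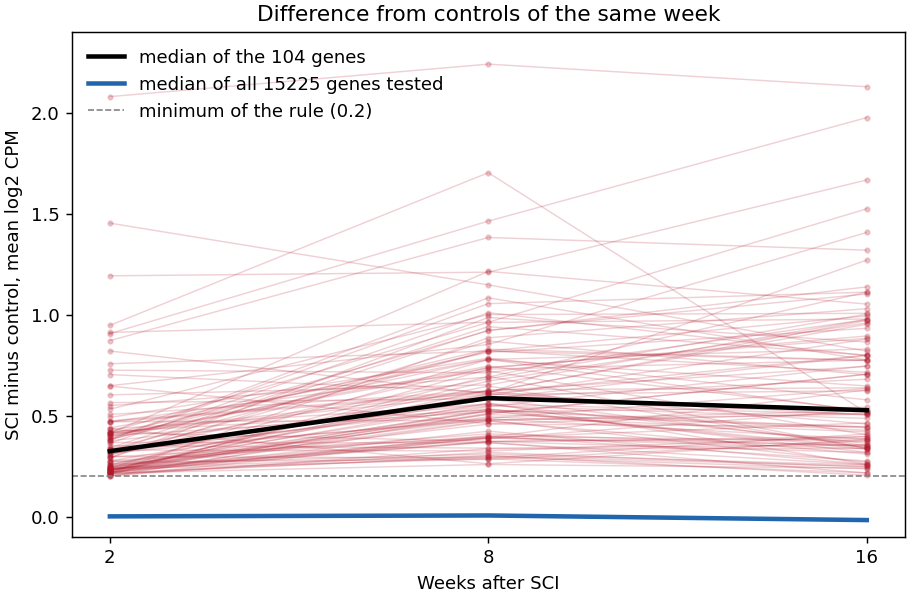
Mean log2 CPM of the 3 SCI libraries minus that of the 3 controls (vertical axis) at 2, 8 and 16 weeks (horizontal axis), with a thin line for each of the 104 genes, thick lines for their median and for the median of all genes tested, and a dashed line at the minimum of 0.2. The median rises from 0.32 at 2 weeks to 0.59 at 8 weeks and is 0.53 at 16 weeks, whereas that of all genes stays near 0.

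The 2-week difference was the smallest of the 3 in 85 genes, the 8-week difference in 9 and the 16-week difference in 10. The largest difference fell at 8 weeks in 52 genes, at 16 weeks in 46 and at 2 weeks in 6. In this sense 2 weeks limited membership. Of the 164 genes whose SCI and control libraries did not overlap at any week in this direction, 60 were left out by the minimum of 0.2, and 56 of these were below it at 2 weeks. The 3 genes just inside the minimum had 2-week differences of 0.2004, 0.201 and 0.2023, and the 3 just outside had 0.1987, 0.1978 and 0.1973. Values on both sides of the line were thus far closer together than the standard error, and the limit of the group is not a natural break.

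The gap between the lowest SCI library and the highest control was also narrow at 2 weeks. Its median over the 104 genes was 0.08 log2 CPM then, against 0.19 at 8 weeks and 0.27 at 16 weeks, and the narrowest gap was 0.000855. SCI 2 weeks replicate 2 was the lowest SCI library of its week for 68 of the 104 genes, and control 2 weeks replicate 2 was the highest control of its week for 54. The number of genes taken was 311 without the former library and 263 without the latter. It was between 84 and 140 without any other single library.

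Week by week, 678 genes (4.45% of those tested) met the conditions at 2 weeks, 1819 (11.9%) at 8 weeks and 2253 (14.8%) at 16 weeks. The 104 genes made up 15.3%, 5.72% and 4.62% of these. A further 777 genes met them at 8 and 16 weeks but not at 2 weeks, 72 at 2 and 8 weeks only and 85 at 2 and 16 weeks only.

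ENSRNOG00000026053 headed the group. In TMM-scaled CPM it was 1.07, 1.90 and 5.07 in the 2-week controls and 11.9, 6.84 and 12.3 in SCI bladders at 2 weeks. At 8 weeks the controls held 2.13, 1.83 and 1.69 CPM and the SCI bladders 9.27, 16.5 and 5.77 CPM. At 16 weeks the controls held 0.928, 2.57 and 0.840 CPM and the SCI bladders 13.9, 4.58 and 3.81 CPM. The spread among SCI animals was wide, and the lowest of them at 16 weeks, at 3.81 CPM, was below the highest 2-week control, at 5.07 CPM. The 0-week controls, which played no part in the choice, held 1.62, 1.23 and 4.46 CPM, so that 1 of them also exceeded that SCI library. The difference was 2.08 log2 CPM (SE 0.66, n = 3 per group) at 2 weeks, 2.24 (SE 0.44) at 8 weeks and 2.13 (SE 0.73) at 16 weeks. The ratio of arithmetic mean CPM, a different quantity, was 3.86, 5.58 and 5.15. Its counts ran from 8 to 151, so counting error adds to these values.

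ENSRNOG00000011907 came next in the order. It was 14.4, 3.51 and 11.0 CPM in the 0-week controls, 4.55, 4.58 and 7.61 CPM at 2 weeks, 3.78, 2.64 and 3.04 CPM at 8 weeks and 3.78, 2.26 and 3.04 CPM at 16 weeks. SCI bladders held 13.3, 9.74 and 15.6 CPM at 2 weeks, 8.93, 4.58 and 10.2 CPM at 8 weeks and 7.96, 9.46 and 12.7 CPM at 16 weeks. The 0-week controls therefore overlapped the SCI libraries of every week, while the controls of the same week lay below them. The difference was 1.19 log2 CPM (SE 0.31, n = 3 per group) at 2 weeks, 1.21 (SE 0.37) at 8 weeks and 1.67 (SE 0.28) at 16 weeks.

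The course of the controls was next followed over all 104 genes. From 2 to 8 weeks the control mean was lower for 98 genes (7539 of the 15225 genes tested). The median change was -0.33 log2 CPM, whereas that of all genes tested was 0.00328. From 2 to 16 weeks the control mean was lower for 99 genes (7403 of all genes tested), again by a median of 0.33. Between 8 and 16 weeks it was lower for 54 and higher for 50, with a median change of -0.01. In SCI bladders the mean was lower at 8 than at 2 weeks for 77 genes (7568 of all genes tested). It was lower at 16 than at 2 weeks for 84 (7756 of all genes tested). The medians of these 2 changes were -0.10 and -0.12 log2 CPM. The mean was lower at 16 than at 2 weeks in both arms for 82 genes (78.8%, against 30.1% of all genes tested). The size of the change from 2 to 16 weeks was smaller in SCI than in control bladders for 87 genes (83.7%, against 67.6% of all genes tested).

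**Figure D2:**
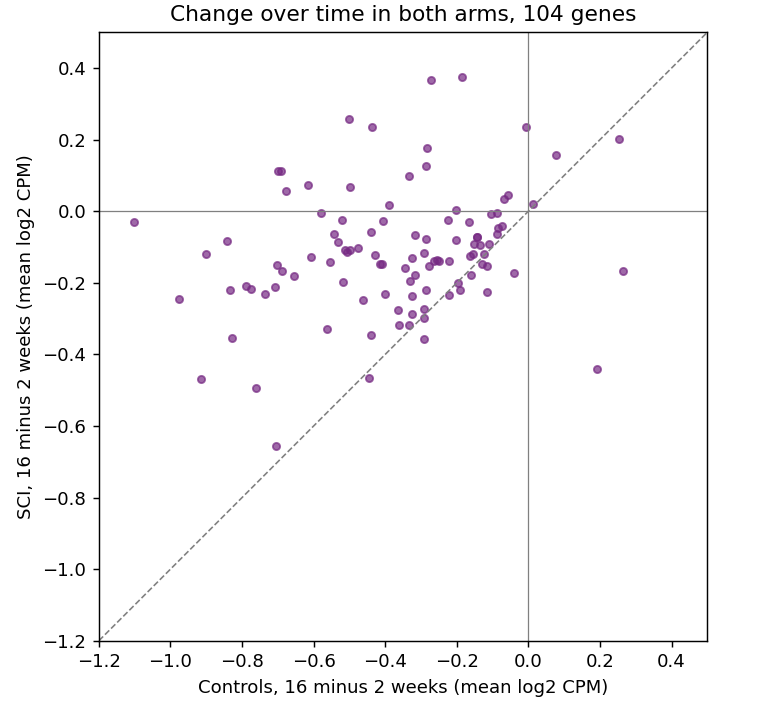
Change in mean log2 CPM from 2 to 16 weeks in controls (horizontal axis) and in SCI bladders (vertical axis), with 1 point for each of the 104 genes and a dashed line of equal change. Points lie mostly left of 0, since 99 genes were lower in 16-week than in 2-week controls, and 90 lie above the line.

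These changes with time are made of the same library values that chose the genes, since every control had to lie below the SCI libraries of its week. The edgeR quasi-likelihood results for them are therefore given as a description (a gene is called at a Benjamini-Hochberg adjusted p under 0.05), and nothing is read from the shares beside those of all genes. Between 16 and 2 weeks in controls, 2 of the 104 genes were called lower (against 0.151% of all genes tested) and 0 higher (against 39 of all genes tested). With an unadjusted p under 0.05, 46 of the 104 were lower (44.2%, against 11% of all genes tested). DESeq2 called 19 of the 104 (against 5.91% of the genes it tested, either direction). Between 8 and 2 weeks in controls edgeR called 0 of the 104 (0% of all genes tested in this direction). There 50 were lower at an unadjusted p under 0.05 (48.1%, against 8.67% of all genes tested), and DESeq2 called 8 (against 1.77%). Between 16 and 8 weeks in controls edgeR called 0 of the 104 (against 0.0788% of all genes tested), with 1 at an unadjusted p under 0.05 (0.962%, against 9.5%). DESeq2 called 0 of the 104 there, against 105 of the 15222 genes it tested.

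In SCI bladders edgeR called 0 of the 104 genes between 8 and 2 weeks (against 0.0131% of all genes tested), between 16 and 2 weeks (0.046%) and between 16 and 8 weeks (0%). DESeq2 also called 0 of the 104 in each, against 22, 25 and 1 of the 15222 genes it tested. At an unadjusted edgeR p under 0.05 there were 5 of the 104 (4.81%, against 4.49% of all genes tested), 3 (2.88%, against 5.23%) and 2 (1.92%, against 1.81%). The difference between SCI and control was larger at 8 than at 2 weeks for 93 genes (89.4%, against 50.7% of all genes tested). It was larger at 16 than at 2 weeks for 90 (86.5%, against 48.4%). These are differences between values to which the minimum of 0.2 was applied, so nothing is read from their direction. The part of the choice of genes in it was not tested. As an interaction, edgeR called 0 of the 104 for 8 against 2 weeks (0% of all genes tested in this direction) and 0 for 16 against 2 weeks (0%). DESeq2 called 0 of the 104 in both, against 28 and 6 of the 15222 genes it tested, either direction. At an unadjusted edgeR p under 0.05, 10 genes (9.62%, against 3.99% of all genes) and 16 genes (15.4%, against 3.71%) had the larger difference at the later week. These shares come from the differences that chose the genes, and nothing is read from them. For 16 against 8 weeks edgeR called 0 of the 104 (0% of all genes tested), with 1 gene at an unadjusted p under 0.05 (0.962%, against 6.63%). DESeq2 called 0 of the 104, against 20 of the 15222 genes it tested.

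The levels of the 2 genes called lower in late controls are given as a description. ENSRNOG00000020481 was 11.1, 10.5 and 10.7 CPM in 2-week controls, 7.33, 7.11 and 7.65 CPM at 8 weeks and 7.09, 6.47 and 5.67 CPM at 16 weeks. Its 0-week controls held 12.8, 8.92 and 11.7 CPM. SCI bladders held 11.4, 11.4 and 14.7 CPM at 2 weeks, 11.8, 9.39 and 10.6 CPM at 8 weeks and 12.2, 9.55 and 10.1 CPM at 16 weeks, all within or above the range of the 0-week controls. The control change from 2 to 16 weeks was -0.74 log2 units (SE 0.16). This was also the gene nearest the minimum, with a 2-week difference between SCI and control of 0.2004.

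ENSRNOG00000056565, the more abundant of the pair in counts, was likewise lower in controls after 2 weeks. It was 99.4, 110 and 96.3 CPM in 2-week controls, 70.8, 52.5 and 64.4 CPM at 8 weeks and 51.5, 67.2 and 58.9 CPM at 16 weeks, a change of -0.79 log2 units from 2 to 16 weeks (SE 0.17). SCI bladders held 124, 119 and 134 CPM at 2 weeks, 118, 89.9 and 105 CPM at 8 weeks and 121, 106 and 99.9 CPM at 16 weeks. Its 0-week controls held 98.2, 55.9 and 88.4 CPM, and replicate 2 stood well below the others. Neither call held in most of the fits that left out 1 library, although the change stayed between -0.83 and -0.66 for ENSRNOG00000020481 and between -0.89 and -0.70 for ENSRNOG00000056565 in all alternatives run, and no p-value is given for these 2 genes, because the test that picked them uses library values that also chose the 104.

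**Figure D3:**
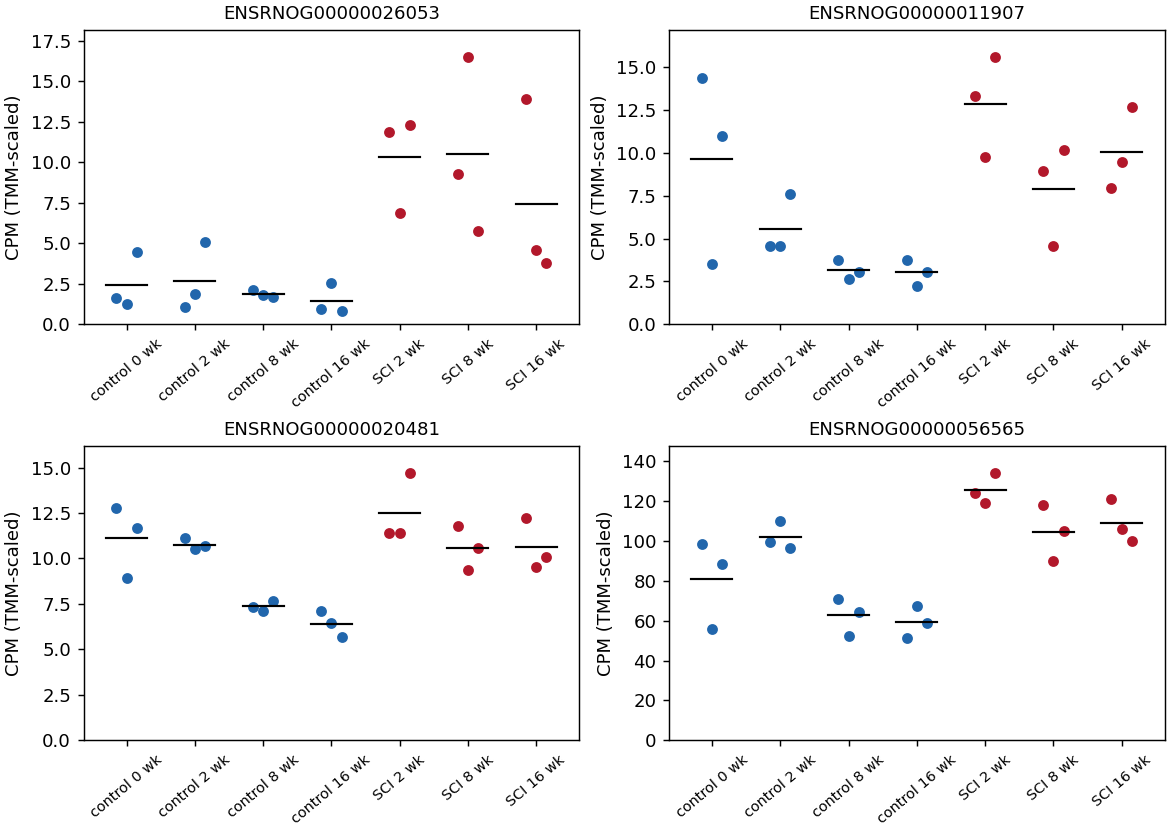
TMM-scaled CPM (vertical axis) of the 4 printed genes in each of the 7 groups (horizontal axis); points are libraries, blue for controls and red for SCI, and black lines are group means of 3. The upper pair had the largest differences, and the lower pair averaged 6.41 CPM and 59.2 CPM in 16-week controls, below their 2-week means of 10.8 CPM and 102 CPM.

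The 0-week controls give levels that did not decide which genes were taken. Relative to their mean, the median gene of the 104 was 0.41 log2 CPM higher in SCI bladders at 2 weeks, 0.33 higher at 8 weeks and 0.32 higher at 16 weeks. Controls were 0.08 higher at 2 weeks and lower by 0.23 and 0.26 at 8 and 16 weeks (medians -0.227 and -0.255). The SCI mean exceeded the 0-week mean for 103, 101 and 99 genes at these 3 times (7708, 7995 and 7818 of all genes tested). The control mean was below the 0-week mean for 38, 95 and 94 (7894, 7615 and 7417 of all genes tested). These values depended on single 0-week controls. Without replicate 2, the lowest of that group, the SCI medians were 0.23, 0.14 and 0.16 and the control medians -0.10, -0.44 and -0.44, so that the 2-week controls changed sign. The SCI mean then exceeded the 0-week mean for 90, 78 and 71 genes. Without replicate 1 the control medians at 8 and 16 weeks were both -0.13. No test was made of these differences, because the SCI libraries had been chosen as high and the controls of 2, 8 and 16 weeks as low.

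All 3 SCI libraries of the 2-week group lay above all 3 0-week controls for 47 genes (45.2%, against 11.5% of all genes tested). The number was 24 in the 8-week group (23.1%, against 8.2%) and 38 in the 16-week group (36.5%, against 9.44%). All 9 SCI libraries lay above all 3 0-week controls for 18 of the 104 genes (17.3%, against 2.78% of all genes tested). That number became 38 when replicate 1 of the 0-week controls was left out and 33 when replicate 3 was. All 9 SCI libraries lay above the 9 controls of 2, 8 and 16 weeks for 16 genes (15.4%, against 0.171% of all genes tested). They lay above all 12 controls for 2 genes (1.92%, against 0.0591%). For the remaining genes, membership thus rested on controls of the same week.

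**Figure D4:**
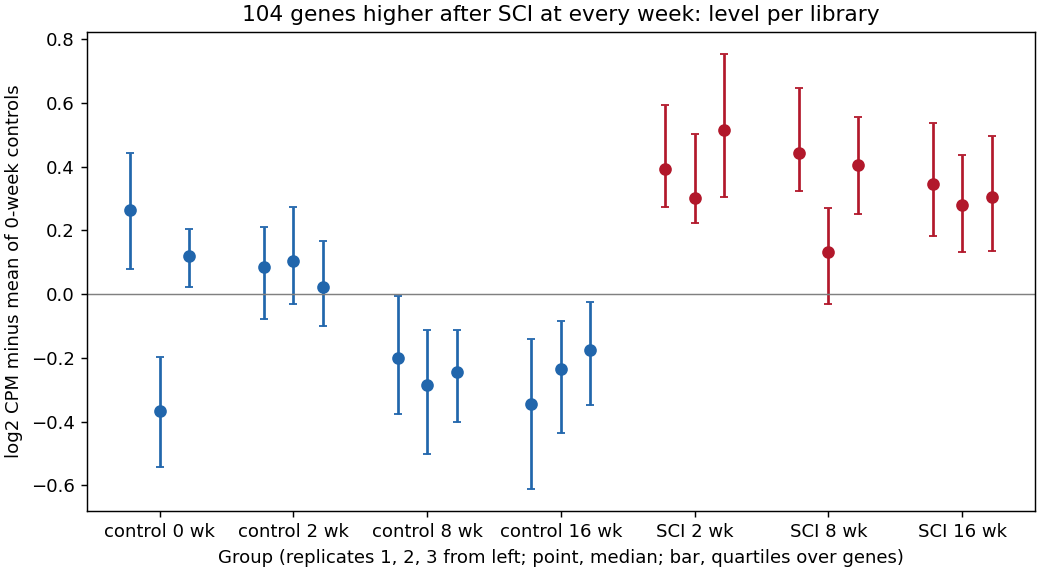
Level of the 104 genes in each of the 21 libraries, as log2 CPM minus the mean of the 0-week controls (vertical axis), by group with replicates 1, 2 and 3 from left (horizontal axis); points are medians over the genes and bars the quartiles. SCI libraries lie between 0.13 and 0.51, controls of 8 and 16 weeks between -0.34 and -0.18, and control 0 weeks replicate 2 lies at -0.365.

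In every group but SCI 16 weeks, most of the 104 genes were lowest in the same library. Relative to the mean of the 0-week controls, their median was 0.264, -0.365 and 0.119 log2 CPM in the 3 libraries of that group, and replicate 2 was the lowest of the 3 for 89 of the 104 genes. In the 2-week controls the median was 0.08, 0.10 and 0.02. In the SCI bladders it was 0.39, 0.30 and 0.51 at 2 weeks, 0.44, 0.13 and 0.41 at 8 weeks and 0.35, 0.28 and 0.30 at 16 weeks. SCI 8 weeks replicate 2 was the lowest of its group for 86 genes. Replicates 1, 2 and 3 were lowest for 24, 68 and 12 genes in SCI 2 weeks and for 66, 26 and 12 in control 16 weeks. In control 2 weeks they were lowest for 30, 15 and 59 genes. The split was more even in SCI 16 weeks (28, 46 and 30) and in control 8 weeks (18, 55 and 31). These counts were not set against all genes tested. The genes come from the same libraries, and their number does not add to the number of animals.

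Within most groups of 3 libraries, the median level of the 104 genes moved with the composition of the libraries. The 10 most abundant genes took 9.51% to 14.3% of counts in controls and 6.31% to 10.3% after SCI, and the TMM scaling factors ran from 0.903 to 1.03 in controls and from 0.996 to 1.09 after SCI. In 6 of 7 groups, the library with the highest median of the 104 genes had the lowest share taken by the 10 most abundant genes, and in 6 of 7 the library with the lowest median had the highest share. Control 0 weeks replicate 2 had a share of 14.3% against 10.7% and 10.3% in the other libraries of its group, and SCI 8 weeks replicate 2 had 8.81% against 6.31% and 6.77%. The part of composition in the differences between groups was not tested. With library size as the only scaling, 196 genes met the conditions, of which 96 were among the 104.

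**Figure D5:**
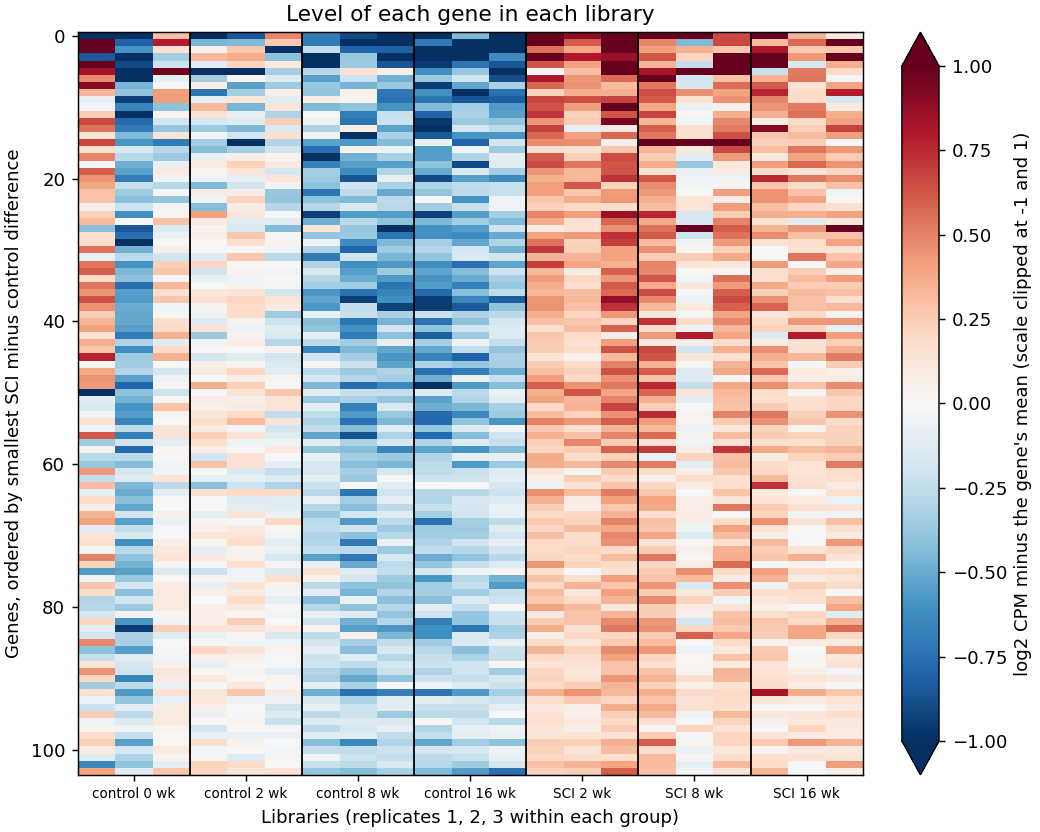
Log2 CPM of each of the 104 genes (rows, ordered from the largest smallest-of-3 difference at the top) in each of the 21 libraries (columns, grouped), minus the mean of the gene and clipped at -1 and 1. SCI libraries are mostly red and controls of 8 and 16 weeks blue, with control 0 weeks replicate 2 and SCI 8 weeks replicate 2 lower than the others of their groups.

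The 104 genes were compared with the 777 that met the conditions at 8 and 16 weeks only. Over the latter, the control mean was lower at 16 than at 2 weeks for 758 genes, by a median of 0.37 log2 CPM, and the median SCI difference was 0.13 at 2 weeks, 0.50 at 8 weeks and 0.46 at 16 weeks. Both groups were chosen for controls below SCI at 8 and 16 weeks. In the 263 genes chosen in the mirrored direction, the control mean was instead higher at 8 than at 2 weeks for 224 genes (median change 0.285) and higher at 16 than at 2 weeks for 199 (median change 0.286). The median control change from 2 to 16 weeks was thus below 0 in the 104 and in the 777 genes and above 0 in the 263. The part of the choice of genes in these courses was not tested. In SCI bladders the median change from 2 to 16 weeks was -0.12 over the 104 genes and -0.03 over the 777. No test was made between these gene groups, because all were chosen from the same libraries.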

How the data were processed

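Read counts were obtained from 21 bladder libraries. The table deposited by the authors gives counts per Ensembl gene without normalization, summed over 2 flow cells of paired-end reads from stranded libraries depleted of ribosomal RNA. The submitters' processing notes name Trim Galore (0.6.10), STAR (2.7.10a), featureCounts (2.0.3) and the build Rnor_6.0. Neither the annotation version nor whether strand was used when counting was given in the sources used here, so overlapping, antisense and near-identical genes may share reads.

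Genes were filtered with filterByExpr on the 7 groups, scaled with TMM factors (trimmed mean of M values) and expressed as log2 CPM with a prior count of 2 in edgeR (4.0.16, R 4.3.3). The 9 tests (changes between weeks in either arm, and interactions) used 1 quasi-likelihood fit of all libraries with a mean per group, 14 residual degrees of freedom and no covariate. P-values were adjusted by Benjamini-Hochberg over the 15225 genes. DESeq2 (1.42.0) was an alternative. Standard errors of tested changes were obtained from the F statistic, and those of differences between groups from the 2 SDs (n = 3 each). Code was tested on simulated data. Pairs of replicates differed beyond sampling noise (chi-square per degree of freedom 7.22 to 59.9), and each library was counted as 1 animal.

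The 104 genes, the lists and the tests were chosen with earlier results of these data known. The rule for naming genes and the gene, marker and motif lists needed symbols and could not be applied. The 2 genes with the largest smallest difference and the 2 called in controls are named instead.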

Additional observations from a re-analysis of the deposited data

How the results depend on the processing

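The number of genes that met the conditions was 104 with RLE factors or a prior count of 0.5, 97 without the count filter and 102 without the 0-week controls. It was 196 with library size only, 17 with a minimum difference of 0.5, 164 with no minimum and 84 to 311 when 1 library was left out. Of the 104 genes, 99 were among the 263 found without control 2 weeks replicate 2 and 102 among the 311 found without SCI 2 weeks replicate 2, but 76 among the 84 found without SCI 2 weeks replicate 3 and 82 among the 95 found without control 2 weeks replicate 3. Library size only shifted the median difference of all genes by 0.03, 0.18 and 0.10 log2 units at 2, 8 and 16 weeks and gave the 104 genes medians of 0.35, 0.77 and 0.63. When 1 library of the week was left out the medians were 0.26 to 0.36, 0.50 to 0.70 and 0.53 to 0.58 at the 3 weeks. The count of genes with every SCI library above every 0-week control was 17 to 38 without 1 of these controls. Without 1 of them, the median of the 104 genes minus the 0-week mean was 0.23 to 0.57, 0.14 to 0.46 and 0.16 to 0.45 in SCI bladders at 2, 8 and 16 weeks and -0.10 to 0.19, -0.44 to -0.13 and -0.44 to -0.13 in controls (alternatives chosen after seeing the data). The 2-week control value, -0.10 without replicate 2, was the 1 sign change.

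In controls at 16 against 2 weeks, 19 of the 104 genes were called by DESeq2 (899 of all genes), 26 without the 0-week controls (1034 of all genes, a fit chosen after seeing the data) and 0 to 22 without 1 library, against 2 (62 of all genes) in edgeR. The count was 0 in 15 of those 21 fits, 8 when control 0 weeks replicate 1 was omitted (474 of all genes), 22 when its replicate 2 was (794) and 13 when SCI 8 weeks replicate 2 was (512). At 8 against 2 weeks, 8 were called by DESeq2 (269 of all genes), 8 without the 0-week controls (211) and 0 to 5 without 1 library, the 5 without control 0 weeks replicate 2 (101). The other 7 tests called 0 of the 104 in each alternative run. Their highest count over all genes was 129, for controls at 16 against 8 weeks without control 16 weeks replicate 2. With the replicate number as a block the 2 counts in controls were 11 (502 of all genes) and 1 (8), and the other 7 tests still called 0 of the 104. The numbers are not known to pair animals. Deviations of same-numbered libraries correlated between -0.239 and 0.377, and 10 of 21 libraries were most alike with one of their own number. The cause of these changes was not tested.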
